A study of Mus musculus with 9 samples.

Results

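Smooth muscle cells (SMC) were compared with alveolar myofibroblast progenitors (MYF), both sorted from fetal mouse lung, across every array feature with a gene symbol. The members are the 3 SMC and 3 MYF samples, as titled, or 6 of the 9 samples of the study. The other 3 samples are of a further sorted group (INM), low for both sort proteins and described by the labels as undifferentiated progenitors, and here they serve only to estimate the spread and for orientation. RNA was hybridised to 1-colour Agilent arrays, 1 array per sample, and the design gives 3 mice per group. In all groups, pregnant mice received tamoxifen at 0.1 mg per g body weight at embryonic day E15.5, and the fetal lungs were taken at E18.5. Red fluorescent (RFP-positive) cells were then sorted, not cultured, by their staining for 2 proteins: Acta2, an actin of smooth muscle cells, and PDGFRalpha, a receptor of platelet-derived growth factor. SMC are the RFP-positive cells with high Acta2 and low PDGFRalpha, and the labels count smooth muscle of both airways and blood vessels among them, so the group mixes at least these cell kinds. MYF are the RFP-positive cells with high PDGFRalpha. The labels name neither the Cre driver nor the RFP allele, so which lineage had been marked is not given in the sources used here. No untreated samples and no cells without RFP are among the 9 samples. Whether the 3 samples of a group came from separate litters is not stated.

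Airway and vascular smooth muscle contracts through actin and smooth muscle myosin, and its contractile genes are driven by serum response factor with its partner myocardin. Alveolar myofibroblasts are the PDGFRalpha-positive cells that lay down elastic fibres where new septa divide the air sacs, and they answer to hedgehog, WNT, FGF and TGF-beta signals. In the mouse, heart muscle extends from the left atrium along the pulmonary veins into the lung, so that a lung cell suspension can hold heart muscle cells. Pdgfra and Acta2 belong to the sort and their values check the labels only. Pdgfra had log2 signals of 6.93 and 6.89 in SMC replicates 2 and 3, 1.98 in SMC replicate 1 and 13.63, 13.04 and 13.87 in MYF. Acta2 read 15.88 and 14.79 in SMC replicates 2 and 3, 14.77 in SMC replicate 1 and 14.06, 13.87 and 13.97 in MYF, so its SMC arrays lay above its MYF arrays by little, and the difference of 1.37 ± 0.38 did not pass (adjusted p = 0.0646).

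Serum response factor binds a short sequence, the CArG box, and the boxes found in muscle gene promoters are shown because the genes behind them divided in this comparison. RefSeq promoters of GRCm38.p6 were searched over the 250 bases before each gene's start, on both strands, and 19193 of the 24269 genes tested had one. A CArG box stood in 294 of them (1.53%). It stood in 6 of 22 promoters of heart muscle sarcomere genes (27.3%) and in 3 of 21 promoters of smooth muscle contractile genes (14.3%). The box, in capitals, is shown with its surroundings, 5′ to 3′ on the strand of the gene.
Myl7 (chr11:5898809-5898868, minus strand): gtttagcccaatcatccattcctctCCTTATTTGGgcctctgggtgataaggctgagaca
Myom1 (chr17:71019433-71019492, plus strand): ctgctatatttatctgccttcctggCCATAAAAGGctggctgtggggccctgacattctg
Myl3 (chr9:110763568-110763627, plus strand): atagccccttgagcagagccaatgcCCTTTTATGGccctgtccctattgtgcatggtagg
Actc1 (chr2:114052888-114052947, minus strand): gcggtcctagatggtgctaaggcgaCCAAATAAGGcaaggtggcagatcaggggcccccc
Ldb3 (chr14:34588682-34588741, minus strand): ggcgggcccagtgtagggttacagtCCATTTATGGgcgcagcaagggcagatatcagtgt
Nebl (chr2:17462984-17463043, minus strand): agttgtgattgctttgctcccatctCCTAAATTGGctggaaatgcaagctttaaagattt
Myl9 (chr2:156775278-156775337, plus strand): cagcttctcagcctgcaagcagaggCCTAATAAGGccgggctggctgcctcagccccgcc
Myl6 (chr10:128493025-128493084, minus strand): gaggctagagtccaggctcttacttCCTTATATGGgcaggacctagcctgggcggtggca
Vcl (chr14:20929148-20929205, plus strand): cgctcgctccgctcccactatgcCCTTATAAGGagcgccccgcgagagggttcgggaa
The first 6 are sarcomere genes of heart muscle and the last 3 belong to the contractile apparatus of smooth muscle. Myl7, Myom1, Myl3, Actc1 and Ldb3 were higher in SMC by 4.02 to 8.82 on the log2 scale, and all passed limma's test without SMC replicate 1, a call that Ldb3 alone lost, without MYF replicate 1 or 3. Nebl (0.46 ± 0.71, adjusted p = 0.726) and the smooth muscle genes Myl9 (0.90 ± 0.45, adjusted p = 0.247), Myl6 (0.29 ± 0.34, adjusted p = 0.632) and Vcl (-0.08 ± 0.31, adjusted p = 0.897) did not pass. A CArG box thus stood before genes on both sides of the test. A binding site of the MEF2 factors stood in 3 of the 22 heart muscle promoters (Mybpc3, Ttn and Myoz2) and 1 of the 21 smooth muscle ones (Synpo2), against 3.03% of all promoters. Of the WNT effector genes described further on, Lef1 and Tcf7 had a CArG box, 2 of 16 with a promoter (12.5%), and no hedgehog pathway promoter of 11 did. These matches describe the sequence and were not tested as sites of binding.

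SMC replicate 1 stood apart from every other array. Over all features with a symbol it correlated at 0.385 to 0.415 with the other 8 arrays, against 0.887 between SMC replicates 2 and 3 and 0.951 to 0.968 within MYF. The median gene differed by 2.32 and 2.24 on the log2 scale between it and SMC replicates 2 and 3, by 0.70 between those 2 replicates and by 0.39 to 0.49 within MYF. Its values for the genes of the sort differed by probe. On the probe used here its Pdgfra was the lowest of the 9 arrays and its Acta2 near that of SMC replicate 3. On another Pdgfra probe it read 7.95 against 2.78 and 2.74 in SMC replicates 2 and 3, still below MYF (8.49 to 9.68), and on another Acta2 probe 3.13 against 13.66 and 11.65, below MYF (10.73 to 10.98). Counts of genes are therefore given from a fit of the other 8 arrays and from one of all 9. Differences of single genes are from the other 8 arrays unless all 9 are named, and many did not hold on all 9. Of 219 genes picked by the naming rule given below, 162 passed without SMC replicate 1 but not on all 9 arrays. SMC replicates 2 and 3 correlated with INM at 0.904 to 0.925, more than with each other, and with MYF at 0.888 to 0.899 and 0.840 to 0.852.

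SMC replicate 1 took no part in the fit of the other arrays, so its values were set beside the calls made there. Of 250 genes that were lower in SMC in that fit and in each of 8 fits leaving out 1 further array, it lay below the MYF mean in 228 (91.2%) and beyond all MYF arrays in 222. Of 419 genes that were higher in SMC by the same rule, it lay above the MYF mean in 258 (61.6%) and below all MYF arrays in 124. Over all genes tested, by the sign of the difference without it, SMC replicate 1 was on the same side in 52.8% of those lower in SMC and 58.8% of those higher. The shares over all genes were not matched for the level in MYF. SMC replicate 1 also read low in bright genes that did not differ. The median log2 signal of ribosomal protein genes was 10.91 in it, 12.85 and 13.15 in SMC replicates 2 and 3 and 12.85 to 12.96 in MYF. The shares therefore cannot show whether SMC replicate 1 shared the falls of the other SMC arrays. They are a description over genes and were not tested.

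**Figure D1:**
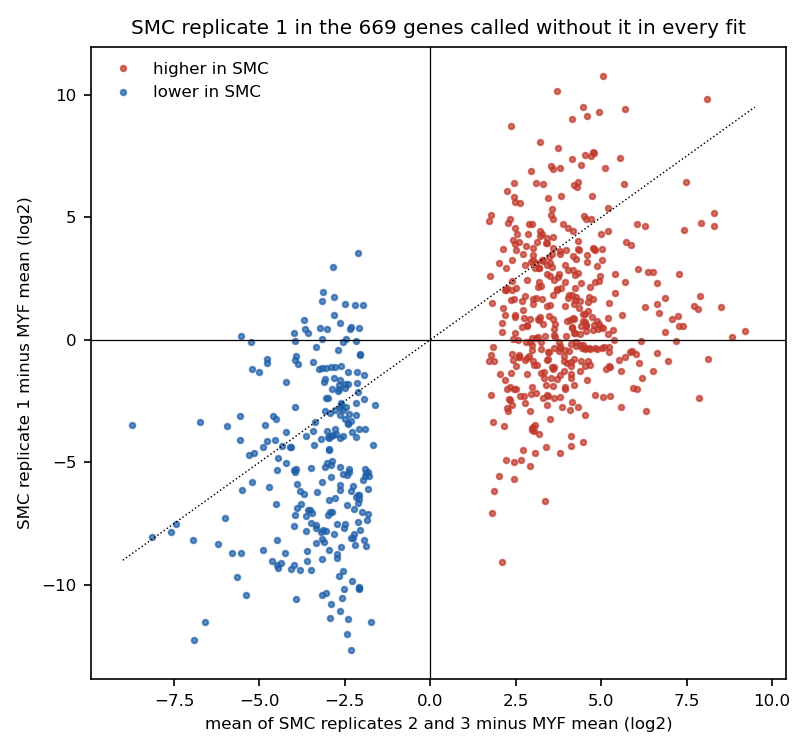
Log2 difference from the MYF mean of SMC replicate 1 (vertical) against that of SMC replicates 2 and 3 (horizontal), 1 point for each of 669 genes that passed limma without SMC replicate 1 and in every fit leaving out 1 further array; the dotted line marks equal differences. Most blue points lie below 0 on the vertical axis (228 of 250), whereas red points lie above it in 258 of 419.

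Without SMC replicate 1, 1990 of 24269 genes passed (8.2%), 1131 of them higher in SMC (4.66%) and 859 lower (3.54%) (limma, Benjamini-Hochberg adjusted p under 0.05). With all 9 arrays 163 of 24274 passed (0.672%), 92 higher (0.379%) and 71 lower (0.292%), and all 163 were among the 1990 with the same sign. The largest differences were on the SMC side: 275 of the genes that rose did so by at least 4 on the log2 scale, against 67 of those that fell. The count of 1990 dropped to 843, 817 and 1223 without MYF replicate 1, MYF replicate 3 and INM replicate 1. Fits that also leave out SMC replicate 2 or 3 hold 1 SMC array, so no spread between SMC arrays enters their p-values. Counts and adjusted p-values given below from those fits rest on the spread within MYF and INM alone. On all 9 arrays limma called no gene once any single MYF array was left out. Leaving out INM replicates 1, 2 and 3 gave 1, 13 and 7 genes, and leaving out SMC replicates 2 and 3 gave 1274 and 73. SMC replicates 2 and 3 both lay above every MYF array in 18% of genes and below in 22.3%, and all 3 SMC arrays lay above in 9.35% and below in 12.1%. A gene is called steady below where it passed without SMC replicate 1 and in all 8 fits leaving out 1 further array with the same sign, which 669 genes did. Of the 163 genes called on all 9 arrays, 149 were steady. Where a list below had no call in a direction, single fits leaving out 1 further array gave up to 4. Counts of list members below are to be read against the shares of all genes called. Without SMC replicate 1 these were 4.66% higher and 3.54% lower, and on all 9 arrays 0.379% and 0.292%. The 3 MYF values of a gene are those of replicates 1 to 3. Differences are SMC minus MYF in log2 signal ± SE, without SMC replicate 1 (n = 2 and 3) unless all 9 arrays are named (n = 3 and 3), and adjusted p-values are limma's over all genes. Because these are bulk samples, fewer cells of a kind and less RNA per cell cannot be told apart in any of them.

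**Figure D2:**
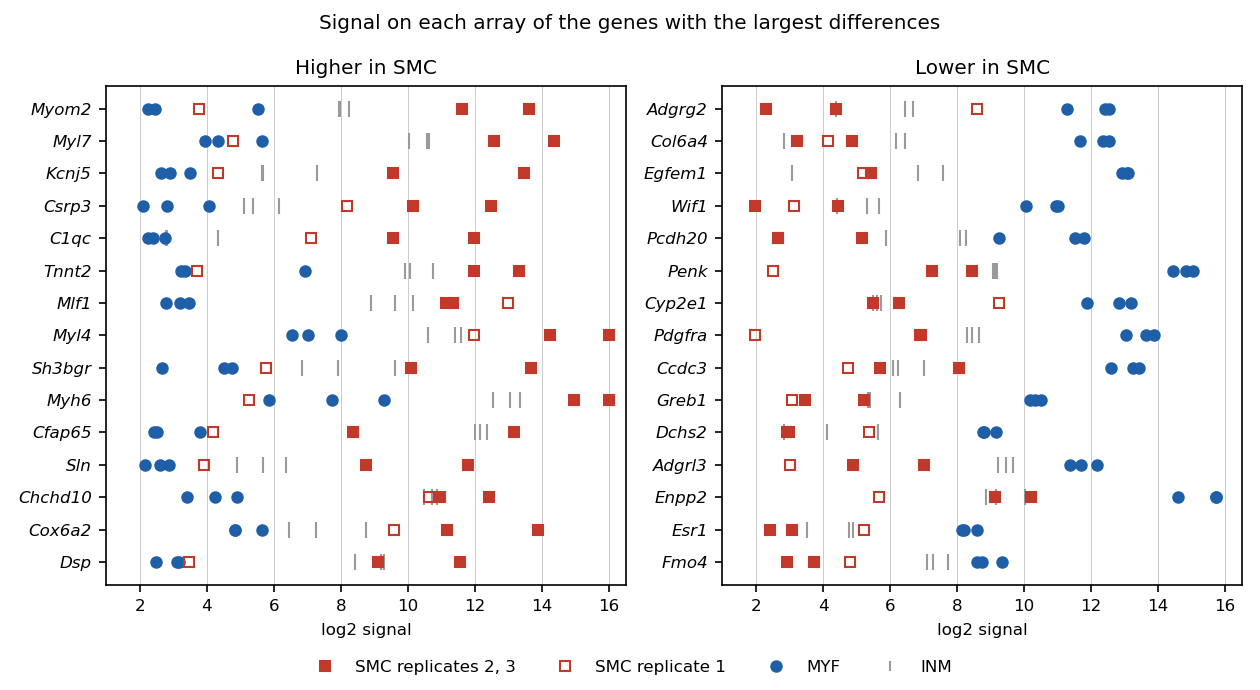
Log2 signal on each array of the 15 genes with the largest steady differences in each direction: red squares are SMC (open for SMC replicate 1), blue circles MYF and grey ticks INM. Filled squares and circles do not overlap in any row, while the open square falls among or near the circles for Myom2, Myl7, Tnnt2 and Dsp and with the filled squares for Mlf1, Chchd10, Wif1 and Egfem1.

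The genes with the largest steady rises in SMC were mostly genes of heart muscle. Myom2, a protein that ties myosin filaments at the centre of the sarcomere, read 13.61 and 11.62 in SMC replicates 2 and 3, 3.75 in SMC replicate 1 and 2.46, 5.53 and 2.25 in MYF. Myl7, the myosin regulatory light chain of the atria, read 14.37 and 12.57 in SMC replicates 2 and 3, 4.77 in SMC replicate 1 and 3.96, 5.64 and 4.34 in MYF. Both were bright in SMC replicates 2 and 3 and near the MYF arrays in SMC replicate 1. Their differences were 9.20 ± 0.99 (adjusted p = 0.00272) and 8.82 ± 0.64 (adjusted p = 0.000916), and 6.25 ± 2.19 (adjusted p = 0.259) and 5.92 ± 2.06 (adjusted p = 0.255) on all 9 arrays. Kcnj5, a potassium channel subunit that slows the atrial beat, was higher by 8.50 ± 1.04 (adjusted p = 0.00427), and Csrp3, a LIM protein of the sarcomere, by 8.32 ± 0.78 (adjusted p = 0.00208). Tnnt2 (cardiac troponin T), Myl4 (the atrial essential light chain), Myh6 (the alpha myosin heavy chain) and Dsp, which anchors desmosomes, rose by 7.41 to 8.14. Myl4 and Myh6 (15.999 and 15.995) were at the ceiling of the array in SMC replicate 2, as was Actc1 among the genes with a CArG box (15.996), so their differences are those of values limited by that ceiling. Not all leading genes encode sarcomere proteins or ion channels. Mlf1 read 11.36 and 11.14 in SMC replicates 2 and 3, 12.97 in SMC replicate 1 and 3.21, 3.48 and 2.78 in MYF, so all 3 SMC arrays lay far above MYF, and its difference was 8.09 ± 0.42 (adjusted p = 0.000664) and on all 9 arrays 8.67 ± 0.62 (adjusted p = 0.00643). Chchd10, which encodes a protein of the mitochondrial intermembrane space, read 12.40 and 10.94 in SMC replicates 2 and 3, 10.62 in SMC replicate 1 and 4.23, 3.40 and 4.91 in MYF, and again the 3 SMC arrays stood apart from MYF, by 7.14 ± 0.62 (adjusted p = 0.0105) on all 9 arrays. C1qc, a complement chain made by macrophages, rose by 8.30 ± 0.74 (adjusted p = 0.00186), and Cfap65, a protein of motile cilia, by 7.85 ± 1.18 (adjusted p = 0.00842). With all 9 arrays the leading rises also held Krt8, a keratin of simple epithelium (6.03 ± 0.97, adjusted p = 0.0366), the cilia genes Rsph1 (6.18 ± 0.90, adjusted p = 0.0309) and Dynlrb2 (6.59 ± 1.09, adjusted p = 0.0394), and Smim22 (6.94 ± 1.18, adjusted p = 0.0438). Without SMC replicate 1, Krt8 and Dynlrb2 no longer passed when MYF replicate 1 (adjusted p = 0.0578 and 0.0702) or MYF replicate 3 (adjusted p = 0.0581 and 0.0668) was also left out.

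Genes of the smooth muscle contractile apparatus set the 2 groups apart far less. Of 24 measured, 4 were higher in SMC without SMC replicate 1 (16.7%, against 4.66% of all genes), none was lower, 1 was steady, and none passed on all 9 arrays. Their median difference was 0.75, and 0.39 on all 9 arrays, beside -0.05 and 0.10 for all genes. Hspb6, a small heat shock protein of muscle that takes part in relaxation, was the steady one. It read 13.22 and 11.71 in SMC replicates 2 and 3, 6.53 in SMC replicate 1 and 8.42, 8.42 and 8.71 in MYF, with SMC replicate 1 below every MYF array, and its difference was 3.95 ± 0.46 (adjusted p = 0.00383). Cnn1, calponin, which restrains the myosin motor, read 14.05 and 12.12 in SMC replicates 2 and 3, 9.63 in SMC replicate 1 and 7.38, 9.58 and 7.44 in MYF. Its SMC arrays were all above its MYF arrays, by 4.95 ± 0.86 (adjusted p = 0.0142), and it did not pass without MYF replicate 1 or MYF replicate 3 (adjusted p = 0.0552 and 0.0568). Des, desmin, an intermediate filament protein of muscle, read 14.02 and 12.03 in SMC replicates 2 and 3, 2.90 in SMC replicate 1 and 8.47, 9.55 and 8.70 in MYF, with SMC replicate 1 far below MYF. Its difference was 4.12 ± 0.98 (adjusted p = 0.0412), and it missed the threshold without SMC replicate 2, MYF replicates 1, 2 or 3, or INM replicate 1 (adjusted p = 0.109, 0.124, 0.0664, 0.117 and 0.0732). Actg2, the gamma actin of visceral smooth muscle, differed by 2.67 ± 0.56 (adjusted p = 0.028) and did not pass without MYF replicate 1, MYF replicate 3 or INM replicate 1 (adjusted p = 0.0882, 0.0951 and 0.0526). The count of 4 became 1, 1 and 2 without these last 3 arrays. On all 9 arrays the differences of Hspb6 and Des were 1.97 and 0.75. Other members were bright in both groups. Myh11, the smooth muscle myosin heavy chain, read 15.02 and 14.67 in SMC replicates 2 and 3, 14.34 in SMC replicate 1 and 14.02, 14.38 and 13.94 in MYF, and the 2 groups were 0.73 ± 0.48 apart (adjusted p = 0.378). Tropomyosin Tpm2 (1.43 ± 0.47, adjusted p = 0.104), Tagln (0.78 ± 0.41, adjusted p = 0.276) and the actin-binding Cald1 (-0.92 ± 0.29, adjusted p = 0.0949) did not pass either. Des is also a protein of heart muscle, whose genes were bright in the same arrays: SMC replicate 2 had the highest signal for Myh11, Cnn1, Des and Actg2 and for Myom2 and Myl7. The part of heart muscle RNA in these differences was not tested.

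Receptors and channels through which smooth muscle is told to contract or relax moved in both directions. Of 34 such receptors measured, 1 was higher in SMC and 5 lower (2.94% and 14.7%), with 1 steady each way, none on all 9 arrays and a median of -0.56 (-0.09 on all 9 arrays). The rise was Chrm2, the muscarinic M2 acetylcholine receptor of smooth and heart muscle, at 10.73 and 9.03 in SMC replicates 2 and 3, 4.74 in SMC replicate 1 and 3.09, 3.30 and 2.68 in MYF. All SMC arrays were above MYF, and the difference was 6.86 ± 0.55 (adjusted p = 0.00123). Chrm3, the muscarinic receptor that drives airway contraction, was dim everywhere (4.73 and 2.90 in SMC replicates 2 and 3, 3.32 in SMC replicate 1 and 3.75, 2.06 and 2.87 in MYF) and its groups overlapped. Ednrb, an endothelin receptor, read 11.97 and 10.90 in SMC replicates 2 and 3, 3.03 in SMC replicate 1 and 14.38, 14.11 and 14.62 in MYF, so every SMC array was below MYF (difference -2.94 ± 0.39, adjusted p = 0.00538). The number of lower receptors was 2, 1, 1 and 3 without SMC replicate 3, MYF replicate 1, MYF replicate 3 and INM replicate 1, and the number of higher ones was 2 without INM replicate 2. Of 31 calcium and potassium channels and pumps, 7 were higher in SMC and 5 lower (4 and 2 steady, 1 lower on all 9 arrays), with a median of 0.56 (0.25 on all 9 arrays). The lower count was 3 and 2 without MYF replicates 1 and 3. Sln, sarcolipin, which restrains the calcium pump of the sarcoplasmic reticulum, rose by 7.73 ± 0.83 (adjusted p = 0.00269), and Casq2, the calcium store protein of heart muscle, by 5.15 ± 0.66 (adjusted p = 0.00488). The channel list thus holds calcium genes of heart muscle as well. Sln and Ryr2 are also members of the list of heart hormones, calcium stores and excitation given below, so they count in both. Cacna1g, a T-type calcium channel, was on the MYF side. It read 6.54 and 5.46 in SMC replicates 2 and 3, 4.59 in SMC replicate 1 and 9.98, 9.87 and 10.06 in MYF, every SMC array below every MYF array, and fell in SMC by 3.97 ± 0.39 (adjusted p = 0.0021), and by 4.44 ± 0.56 (adjusted p = 0.0225) on all 9 arrays. Abcc9, a subunit of ATP-sensitive potassium channels, differed by -1.92 ± 0.33 (adjusted p = 0.0133).

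Most sarcomere genes of heart muscle rose in SMC. Of 25 sarcomere genes of heart muscle, 21 were higher (84%), 18 of them steady, none was lower, and 5 passed on all 9 arrays. The count stayed at 18 to 22 in the fits leaving out 1 further array. The median difference was 5.72, and 4.51 on all 9 arrays. Beyond the leading genes, the troponin genes Tnni3 and Tnnc1, the beta myosin heavy chain Myh7, the ventricular light chain Myl2, the giant spring protein Ttn and Actn2, which crosslinks actin at the Z-disc, were among the steady ones, with differences of 5.72 to 7.28 (named after their values were seen). Ttn read 13.84 and 10.99 in SMC replicates 2 and 3, 10.77 in SMC replicate 1 and 6.31, 6.23 and 5.87 in MYF and passed on all 9 arrays (5.73 ± 0.87, adjusted p = 0.0328), as did Tnnc1 (5.14 ± 0.84, adjusted p = 0.0385), Myl3 (4.78 ± 0.68, adjusted p = 0.0303), Myl4 (6.88 ± 0.95, adjusted p = 0.0277) and Csrp3 (7.27 ± 1.02, adjusted p = 0.0303). The level differed between the SMC arrays. The median log2 signal of the list was 13.17 in SMC replicate 2, 10.61 in SMC replicate 3 and 6.32 in SMC replicate 1, against 5.80 to 6.01 in MYF and 7.59 to 8.69 in INM. The list held 1.59% and 0.472% of the summed linear signal of all genes in SMC replicates 2 and 3, 0.0698% in SMC replicate 1, 0.0239% to 0.0324% in MYF and 0.108% to 0.160% in INM. In INM, too, the list stood above its MYF level, and below SMC replicates 2 and 3.

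Some factors that specify heart muscle were higher too. Of 25 muscle transcription regulators, 4 were higher and none lower, with 2 steady, 1 on all 9 arrays and a median of 0.55 (0.53 on all 9 arrays). The count was 2 without MYF replicate 1, MYF replicate 3 or INM replicate 1. Nkx2-5, a homeobox factor of the heart, read 8.46 and 7.02 in SMC replicates 2 and 3, 7.92 in SMC replicate 1 and 2.11, 3.38 and 2.15 in MYF. All 3 SMC arrays were above all MYF arrays, by 5.19 ± 0.73 (adjusted p = 0.00664) and, over all 9 arrays, by 5.25 ± 0.70 (adjusted p = 0.0264). Tbx20, a T-box factor of the heart, rose by 4.59 ± 0.55 (adjusted p = 0.00415), but SMC replicate 1 read 3.78 against 5.70, 5.48 and 5.03 in MYF. Myocd, the partner of serum response factor, read 7.88 and 5.89 in SMC replicates 2 and 3, 3.60 in SMC replicate 1 and 6.73, 5.44 and 6.83 in MYF, and its groups overlapped. Of 20 genes of heart hormones, calcium stores and excitation, 9 were higher (5 steady, 1 on all 9 arrays) and the median was 2.82 (2.49 on all 9 arrays), with counts of 14 and 5 without SMC replicate 3 and MYF replicate 1. Kcnj5 and Sln led it, with Gja5, the connexin of atrial muscle and arteries (5.69 ± 0.64, adjusted p = 0.00323). Nppa, the atrial peptide hormone, was not among the rises: it read 6.30 and 4.70 in SMC replicates 2 and 3, 4.05 in SMC replicate 1 and 6.20, 6.76 and 7.00 in MYF. Of 20 muscle isoforms of energy metabolism, 8 were higher (6 steady, 2 on all 9 arrays, 14 without SMC replicate 3) and the median was 2.50 (1.92 on all 9 arrays). Cox6a2, the muscle form of a cytochrome oxidase subunit, rose by 7.42 ± 0.88 (adjusted p = 0.00401) and, over all 9 arrays, by 6.44 ± 1.05 (adjusted p = 0.0386), and its relatives Cox8b and Cox7a1 by 7.19 ± 0.77 (adjusted p = 0.00269) and 5.60 ± 0.72 (adjusted p = 0.00492). Fabp3, which carries fatty acids in heart muscle, rose by 5.23 ± 0.65 (adjusted p = 0.00439). Of 24 skeletal muscle genes 6 were higher and 1 lower, none passed on all 9 arrays, and the median was 0.32 (0.45 on all 9 arrays). The steady ones were Myl1, Myh8, Tnni2 and Tnnt1, higher by 5.22 to 6.17. The lower count was 2 without SMC replicate 2 and 0 in the other 7 fits.

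On the other side, the largest steady differences were genes of signalling, adhesion and metabolism that were bright in MYF. Adgrg2, an adhesion G protein-coupled receptor, read 4.38 and 2.31 in SMC replicates 2 and 3, 8.60 in SMC replicate 1 and 12.52, 11.27 and 12.41 in MYF, with every SMC array below every MYF array, and fell in SMC by 8.72 ± 0.85 (adjusted p = 0.0021). On another Adgrg2 probe SMC replicates 2 and 3 were below MYF too, but SMC replicate 1 read 10.50, above MYF (6.08 to 7.68). Another adhesion G protein-coupled receptor, the latrophilin Adgrl3, read 7.00 and 4.91 in SMC replicates 2 and 3, 3.02 in SMC replicate 1 and 11.70, 11.37 and 12.17 in MYF and fell by 5.79 ± 0.58 (adjusted p = 0.00235). On all 9 arrays it fell by 6.77 ± 0.89 (adjusted p = 0.0264). The cadherin relatives Pcdh20 and Dchs2, which hold cells to their neighbours, differed by -6.93 ± 1.07 (adjusted p = 0.00939) and -5.96 ± 0.69 (adjusted p = 0.00382). Esr1, the oestrogen receptor alpha, read 3.07 and 2.43 in SMC replicates 2 and 3, 5.21 in SMC replicate 1 and 8.21, 8.15 and 8.60 in MYF. All 3 SMC arrays lay below MYF (difference -5.57 ± 0.47, adjusted p = 0.00156, and -4.75 ± 0.76, adjusted p = 0.0354 on all 9 arrays). Greb1, a gene known in breast cancer cells as a target of that receptor, read 3.46 and 5.23 in SMC replicates 2 and 3, 3.08 in SMC replicate 1 and 10.33, 10.17 and 10.52 in MYF and differed by -6.00 ± 0.54 (adjusted p = 0.0019), and by -6.42 ± 0.63 (adjusted p = 0.0116) on all 9 arrays. Enzymes of small molecule metabolism were in the same set. Cyp2e1, a cytochrome P450, read 5.50 and 6.28 in SMC replicates 2 and 3, 9.25 in SMC replicate 1 and 12.83, 11.87 and 13.19 in MYF, with a difference of -6.74 ± 0.44 (adjusted p = 0.000916), and the flavin monooxygenase Fmo4 differed by -5.55 ± 0.39 (adjusted p = 0.000916) and the alcohol dehydrogenase Adh1 by -4.63 ± 0.34 (adjusted p = 0.000916). Enpp2, the secreted enzyme autotaxin, which makes lysophosphatidic acid, read 10.22 and 9.14 in SMC replicates 2 and 3, 5.66 in SMC replicate 1 and 15.72, 14.58 and 15.73 in MYF and differed by -5.66 ± 0.54 (adjusted p = 0.0021). Ccdc3, a secreted protein (-6.22 ± 0.67, adjusted p = 0.00269), and Scara5, a receptor for ferritin (-5.54 ± 0.37, adjusted p = 0.000916), were further leading genes of one fit or both. Col6a4, Egfem1, Wif1 and Penk follow with their families. All of these were steady.

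Most markers of alveolar myofibroblasts fell in SMC. Of 21 measured, 13 were lower (61.9%, against 3.54% of all genes), 9 of them steady, none was higher, and 5 were lower on all 9 arrays. The median difference was -2.90, and -3.66 on all 9 arrays. Pdgfra, by which the cells were sorted, is a member. Egfem1, an EGF-domain protein, read 5.44 and 5.42 in SMC replicates 2 and 3, 5.19 in SMC replicate 1 and 13.06, 12.93 and 13.10 in MYF. Here SMC replicate 1 gave nearly the same signal as SMC replicates 2 and 3, and the difference was -7.60 ± 1.13 (adjusted p = 0.00806). Gdf10, a BMP family ligand, read 7.60 and 9.15 in SMC replicates 2 and 3, 8.92 in SMC replicate 1 and 13.54, 13.16 and 13.91 in MYF, with the SMC arrays again together and below MYF (difference -5.16 ± 0.52, adjusted p = 0.00235, and -4.98 ± 0.56, adjusted p = 0.0188 on all 9 arrays). The stress hormone gene Crh differed by -3.42 ± 0.42 (adjusted p = 0.00426). Tgfbi, an adhesive matrix protein, differed by -3.05 ± 0.31 (adjusted p = 0.00245). Elastin itself (Eln), the main product of these cells, was at the ceiling of the array in both groups (15.96 and 15.97 in SMC replicates 2 and 3, 12.28 in SMC replicate 1 and 15.99, 15.99 and 15.997 in MYF), so no difference could be read from it.

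The WNT signalling genes that passed were mostly lower in SMC. Of 41 ligands and receptors 7 were lower (17.1%) and 1 higher (2.44%, under the 4.66% of all genes). Of these, 4 and 1 were steady. None passed on all 9 arrays, and the median was -0.59 (-0.33 on all 9 arrays). Wnt5a, a ligand of noncanonical signalling, differed by -2.68 ± 0.28 (adjusted p = 0.00248). Its receptor Ror1 (-3.96 ± 0.61, adjusted p = 0.00911) and the receptor Fzd1 (-3.18 ± 0.39, adjusted p = 0.00416) were lower as well. Lgr5, a receptor for R-spondins, read 3.12 and 2.65 in SMC replicates 2 and 3, 8.04 in SMC replicate 1 and 7.77, 9.30 and 7.35 in MYF, so that SMC replicate 1 lay among the MYF arrays, and the difference without it was -5.25 ± 0.62 (adjusted p = 0.00397). Fzd6, another Frizzled receptor, was the steady rise, at 3.72 ± 0.52 (adjusted p = 0.00669). Of 25 effectors, targets and inhibitors 8 were lower and 1 higher (5 steady, all lower), 4 were lower on all 9 arrays, and the median was -0.95 (-2.10 on all 9 arrays). Wif1, a secreted WNT inhibitor, read 4.44 and 1.98 in SMC replicates 2 and 3, 3.14 in SMC replicate 1 and 10.996, 10.05 and 10.95 in MYF. All SMC arrays were below all MYF arrays (difference -7.45 ± 0.72, adjusted p = 0.0021). The transcription factors that act with beta-catenin were lower too: Lef1 read 4.06 and 2.93 in SMC replicates 2 and 3, 4.99 in SMC replicate 1 and 8.68, 7.42 and 8.21 in MYF and differed by -4.60 ± 0.50 (adjusted p = 0.00416), with no value in INM replicate 1, and Tcf7 by -3.93 ± 0.45 (adjusted p = 0.00378) and, over all 9 arrays, by -4.38 ± 0.59 (adjusted p = 0.0265). The secreted inhibitor Frzb differed by -2.85 ± 0.43 (adjusted p = 0.00815). The lower count of ligands and receptors was 4 without MYF replicate 1 or MYF replicate 3, their higher count was 2 without SMC replicate 3 or MYF replicate 2, and the lower count of effectors was 5 without SMC replicate 3, MYF replicate 1 or MYF replicate 3. No effector was higher without MYF replicate 1 or 3.

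Hedgehog signalling runs from ligands of the epithelium to receptors and GLI factors of the mesenchyme, and here ligands and response genes lay on opposite sides. Of 16 genes 6 were lower and 2 higher (3 lower ones steady, 2 lower on all 9 arrays), and the median was -1.91 (-2.62 on all 9 arrays). Gli1, the GLI factor that is itself a target, read 6.17 and 6.55 in SMC replicates 2 and 3, 7.04 in SMC replicate 1 and 9.02, 9.11 and 9.00 in MYF. Every SMC array was below every MYF array on this probe (difference -2.69 ± 0.29, adjusted p = 0.00268, and -2.46 ± 0.43, adjusted p = 0.0491 on all 9 arrays). On another Gli1 probe the groups overlapped and differed by -0.04. That probe read 3.88 and 6.72 in SMC replicates 2 and 3, 8.19 in SMC replicate 1 and 5.53, 4.94 and 5.56 in MYF. Foxf2, a forkhead factor that answers to hedgehog, read 9.02 and 8.19 in SMC replicates 2 and 3, 6.44 in SMC replicate 1 and 13.59, 11.90 and 13.90 in MYF and differed by -4.53 ± 0.59 (adjusted p = 0.0052). Ptch1, the receptor and a target of its own pathway, was the remaining steady gene (-1.83 ± 0.29, adjusted p = 0.0107, chosen after its values were seen). The 2 higher genes were the ligands Shh (2.34 ± 0.45, adjusted p = 0.0212) and Dhh (4.16 ± 1.03, adjusted p = 0.0467), and neither was steady: Shh did not pass without SMC replicate 3, MYF replicate 1 or MYF replicate 2 (adjusted p = 0.0533 to 0.0815). Dhh did not pass in 7 of the 8 fits, the exception being that without SMC replicate 2 (adjusted p = 0.0666 to 0.136). Shh is an epithelial gene, and epithelial markers were higher in the same arrays, as given below. The lower count rose to 11 when SMC replicate 2 was left out, and was 3 when SMC replicate 3, MYF replicate 1, MYF replicate 3 or INM replicate 1 was.

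FGF, TGF-beta and IGF pathway genes that passed were mostly lower in SMC as well. Of 36 FGF ligands, receptors and response genes, 6 were lower (16.7%) and 1 higher (2.78%, under the 4.66% of all genes). Of these, 3 and 1 were steady. The median was -0.77 (-0.81 on all 9 arrays), and 2 genes were lower on all 9 arrays. The lower count was 12, 3 and 3 without SMC replicate 2, SMC replicate 3 and MYF replicate 3. Fgf10, the growth factor that draws out lung epithelium, read 3.10 and 2.78 in SMC replicates 2 and 3, 2.602 in SMC replicate 1 and 6.49, 8.34 and 7.41 in MYF. The 3 SMC arrays were all near the lower end of the scale and below MYF (difference -4.47 ± 0.60, adjusted p = 0.00564, and -4.58 ± 0.61, adjusted p = 0.0264 on all 9 arrays). The response genes Etv1 and Spry1 were lower (-3.50 ± 0.58, adjusted p = 0.0117, and -3.19 ± 0.41, adjusted p = 0.00488), while Fgf1 was higher by 3.61 ± 0.42 (adjusted p = 0.0039). Of 26 genes of TGF-beta and activin signalling, 9 were lower and none higher (4 steady, none on all 9 arrays), with a median of -0.78 (-1.86 on all 9 arrays). The co-receptor Tgfbr3 read 10.72 and 9.88 in SMC replicates 2 and 3, 4.87 in SMC replicate 1 and 13.93, 13.42 and 14.36 in MYF and differed by -3.61 ± 0.47 (adjusted p = 0.0052), and the activin receptor Acvr2a by -2.64 ± 0.42 (adjusted p = 0.0103). The ligands Tgfb1, Tgfb2 and Tgfb3 did not pass, with differences of -0.44, -0.07 and -1.13. The count of 9 was 4 and 5 without MYF replicates 1 and 3. Of 15 IGF genes 4 were lower and none higher, none passed on all 9 arrays, and the median was -0.31 (-2.31 on all 9 arrays). The steady ones were Igf1 (-2.19 ± 0.35, adjusted p = 0.0102), its carrier Igfbp3 (-3.92 ± 0.53, adjusted p = 0.00573) and Pappa2, a protease that frees IGF (-3.26 ± 0.34, adjusted p = 0.00266). Among 22 neuropeptides and hormones, Penk, the precursor of enkephalins, read 7.26 and 8.45 in SMC replicates 2 and 3, 2.50 in SMC replicate 1 and 14.82, 14.44 and 15.04 in MYF. It was the lowest in SMC replicate 1 and fell by 6.91 ± 0.40 (adjusted p = 0.000916) without it. The calcium-regulating hormone gene Stc1 differed by -2.42 ± 0.29 (adjusted p = 0.00397). Among 50 genes of glutamate, GABA and nicotinic receptors, Gria3, an AMPA receptor subunit, was the only steady one. It read 3.54 and 3.38 in SMC replicates 2 and 3, 4.07 in SMC replicate 1 and 8.56, 9.36 and 8.43 in MYF, so the 3 SMC arrays lay close together and below MYF (difference -5.32 ± 0.39, adjusted p = 0.000916, and -5.12 ± 0.48, adjusted p = 0.0105 on all 9 arrays).

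Collagen and elastic fibre genes were lower in SMC where they passed, and laminins split. Of 44 collagen chains 11 were lower and none higher (8 steady, 2 on all 9 arrays), with a median of -0.99 (-1.21 on all 9 arrays), and the count was 8 to 13 in the fits leaving out 1 further array. Col6a4 read 4.86 and 3.21 in SMC replicates 2 and 3, 4.16 in SMC replicate 1 and 12.36, 11.68 and 12.53 in MYF, and all SMC arrays were far below MYF (difference -8.16 ± 1.05, adjusted p = 0.00488). The chain Col6a3 of the same microfibrillar collagen differed by -2.90 ± 0.46 (adjusted p = 0.0103). Col5a1, which sets the width of collagen fibrils, was lower too (difference -2.60 ± 0.29, adjusted p = 0.00295, and -2.60 ± 0.40, adjusted p = 0.0342 on all 9 arrays). Of 22 genes of elastic fibres and crosslinking 7 were lower and none higher (2 steady, none on all 9 arrays), with a median of -1.06 (-1.58 on all 9 arrays) and counts of 2 and 4 without MYF replicates 1 and 3. The steady ones were Fbln1 (-3.82 ± 0.37, adjusted p = 0.0021), a fibulin that binds elastin, and the microfibril gene Fbn1 (-1.97 ± 0.32, adjusted p = 0.0111, chosen after its values were seen). Laminin and basement membrane genes had 4 of 14 on each side (2 steady and 1 on all 9 arrays on each), with a median of -0.45 (-1.35 on all 9 arrays). Lamc3 read 2.83 and 4.19 in SMC replicates 2 and 3, 2.89 in SMC replicate 1 and 9.04, 8.18 and 8.94 in MYF and was lower in every SMC array (difference -5.21 ± 0.64, adjusted p = 0.00436, and -5.41 ± 0.65, adjusted p = 0.0188 on all 9 arrays), and Lamc1 differed by -2.54 ± 0.32 (adjusted p = 0.00483). By contrast Lama3 and Lamb3, chains of the laminin under epithelia, were higher by 3.92 ± 0.50 (adjusted p = 0.00482) and 3.49 ± 0.51 (adjusted p = 0.00739), in the arrays in which epithelial markers were higher. The higher count was 2 without MYF replicate 1, MYF replicate 3 or INM replicate 1 and the lower count 2 without MYF replicate 3. Of 46 matrix proteases and their inhibitors 6 were lower (13.3%) and 1 higher (2.22%, under the 4.66% of all genes). Of the lower ones 3 were steady and 1 passed on all 9 arrays. The median was -0.62 (-0.28 on all 9 arrays). Adamts14, which trims collagen propeptides, read 7.98 and 8.03 in SMC replicates 2 and 3, 6.75 in SMC replicate 1 and 12.94, 12.21 and 13.07 in MYF and differed by -4.73 ± 0.44 (adjusted p = 0.00208) and, over all 9 arrays, by -5.15 ± 0.57 (adjusted p = 0.0188), and the gelatinase Mmp2 by -4.37 ± 0.39 (adjusted p = 0.00186). The lower protease count was 3 without MYF replicate 1, MYF replicate 3, INM replicate 1 or INM replicate 2, and its rise, Mmp27 (3.28 ± 0.70, adjusted p = 0.0297), did not pass without SMC replicate 2, MYF replicates 1, 2 or 3 or INM replicate 1 (adjusted p = 0.0557 to 0.0978).

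Some contact and guidance genes also differed. Of 39 cadherins and connexins 10 were higher and 2 lower (3 steady, all higher, and none on all 9 arrays), with a median of 0.61 (1.03 on all 9 arrays), and the higher count was 5, 4 and 5 without MYF replicate 1, MYF replicate 3 and INM replicate 1. The lower count was 0 or 1 without any single MYF array, INM replicate 1 or INM replicate 3. The steady ones were Gja5, described above, Gja4, the connexin of arterial endothelium and smooth muscle (5.59 ± 0.42, adjusted p = 0.000921), and Cdh5, the cadherin of endothelium (4.13 ± 0.36, adjusted p = 0.00186). SMC replicate 1 was dim for both Gja4 (3.10) and Cdh5 (2.58). Of 70 axon guidance ligands and receptors 12 were lower (17.1%) and 3 higher (4.29%, near the 4.66% of all genes). Of these, 5 and 2 were steady and none passed on all 9 arrays. The median was -0.34 (-0.47 on all 9 arrays). Plxna2, a semaphorin receptor, read 7.98 and 7.58 in SMC replicates 2 and 3, 3.33 in SMC replicate 1 and 11.77, 11.99 and 12.34 in MYF and differed by -4.25 ± 0.31 (adjusted p = 0.000916). The repellent Slit2 and its receptor Robo1 were both lower (-3.997 ± 0.39, adjusted p = 0.0021, and -3.16 ± 0.36, adjusted p = 0.00358), while Sema3g, a semaphorin made by endothelium, was higher by 6.20 ± 0.73 (adjusted p = 0.00397). The lower count was 6, 5 and 6 without SMC replicate 3, MYF replicate 1 and MYF replicate 3, and the higher count 7 without SMC replicate 2. Among 26 integrins, Itga7, the laminin receptor of muscle, read 7.00 and 6.54 in SMC replicates 2 and 3, 10.08 in SMC replicate 1 and 3.64, 3.63 and 3.80 in MYF. All SMC arrays were above MYF, by 3.08 ± 0.32 (adjusted p = 0.00259). Itga9 and Itgav differed by -2.74 ± 0.46 (adjusted p = 0.0119) and -2.17 ± 0.36 (adjusted p = 0.0119).

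Transcription factors of lung mesenchyme were lower in SMC or did not pass. Of 49 measured 9 were lower and none higher (6 steady, 2 on all 9 arrays), with a median of -0.93 (-1.76 on all 9 arrays), and 16 were lower and 4 higher without SMC replicate 2. Tbx3, a T-box factor, read 8.94 and 6.64 in SMC replicates 2 and 3, 2.91 in SMC replicate 1 and 12.53, 11.35 and 12.87 in MYF, below MYF in all SMC arrays (difference -4.46 ± 0.71, adjusted p = 0.0105). Snai1, a zinc finger factor of mesenchyme, read 3.42 and 4.50 in SMC replicates 2 and 3, 7.96 in SMC replicate 1 and 8.73, 7.95 and 9.499 in MYF. Its difference was -4.77 ± 0.61 (adjusted p = 0.00482), but SMC replicate 1 lay within the range of MYF. Tcf21, a factor of lung fibroblasts (-1.90 ± 0.48, adjusted p = 0.0505), and Tbx5, which acts with Tbx4 in lung mesenchyme (-2.89 ± 0.89, adjusted p = 0.0869), did not pass. Among 38 HOX genes Hoxb3 was the only steady one (-2.95 ± 0.42, adjusted p = 0.00728, and -2.97 ± 0.49, adjusted p = 0.0388 on all 9 arrays). Of 18 NOTCH pathway genes 5 were higher and none lower (none on all 9 arrays), with a median of 0.88 (1.05 on all 9 arrays), and the ligand Jag2 as the steady one (4.14 ± 0.60, adjusted p = 0.00728). The count was 2, 3 and 1 without SMC replicate 3, MYF replicate 1 and MYF replicate 3. Lipofibroblast and matrix fibroblast genes split, 5 of 20 on each side (3 higher and 4 lower steady, 1 higher and 2 lower on all 9 arrays), with a median of 0.69 (-0.35 on all 9 arrays). Cd36 and Fabp4, which take up and carry fatty acids in both fibroblasts and endothelium, were higher by 4.83 ± 0.40 (adjusted p = 0.00146) and 3.80 ± 0.60 (adjusted p = 0.0101), whereas Adh1, given above, and Inmt, a methyltransferase of lung fibroblasts (-3.97 ± 0.49, adjusted p = 0.00426), were lower. The higher count was 3 without any 1 of the MYF or INM arrays. Pericyte and mural genes had 2 of 18 lower and none higher (none on all 9 arrays), with a median of -0.33 (-0.42 on all 9 arrays), 4 lower without SMC replicate 2 and 1 without MYF replicate 1 or 3. The lower ones were Abcc9 and another potassium channel subunit, Kcnj8 (-3.20 ± 0.61, adjusted p = 0.0197), which did not pass without MYF replicate 1 or 3 (adjusted p = 0.0638 to 0.0726). Rgs5, a marker of pericytes, read 11.03 and 10.16 in SMC replicates 2 and 3, 2.29 in SMC replicate 1 and 11.26, 12.31 and 11.66 in MYF, and did not pass (-1.15 ± 0.42, adjusted p = 0.133).

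**Figure D3:**
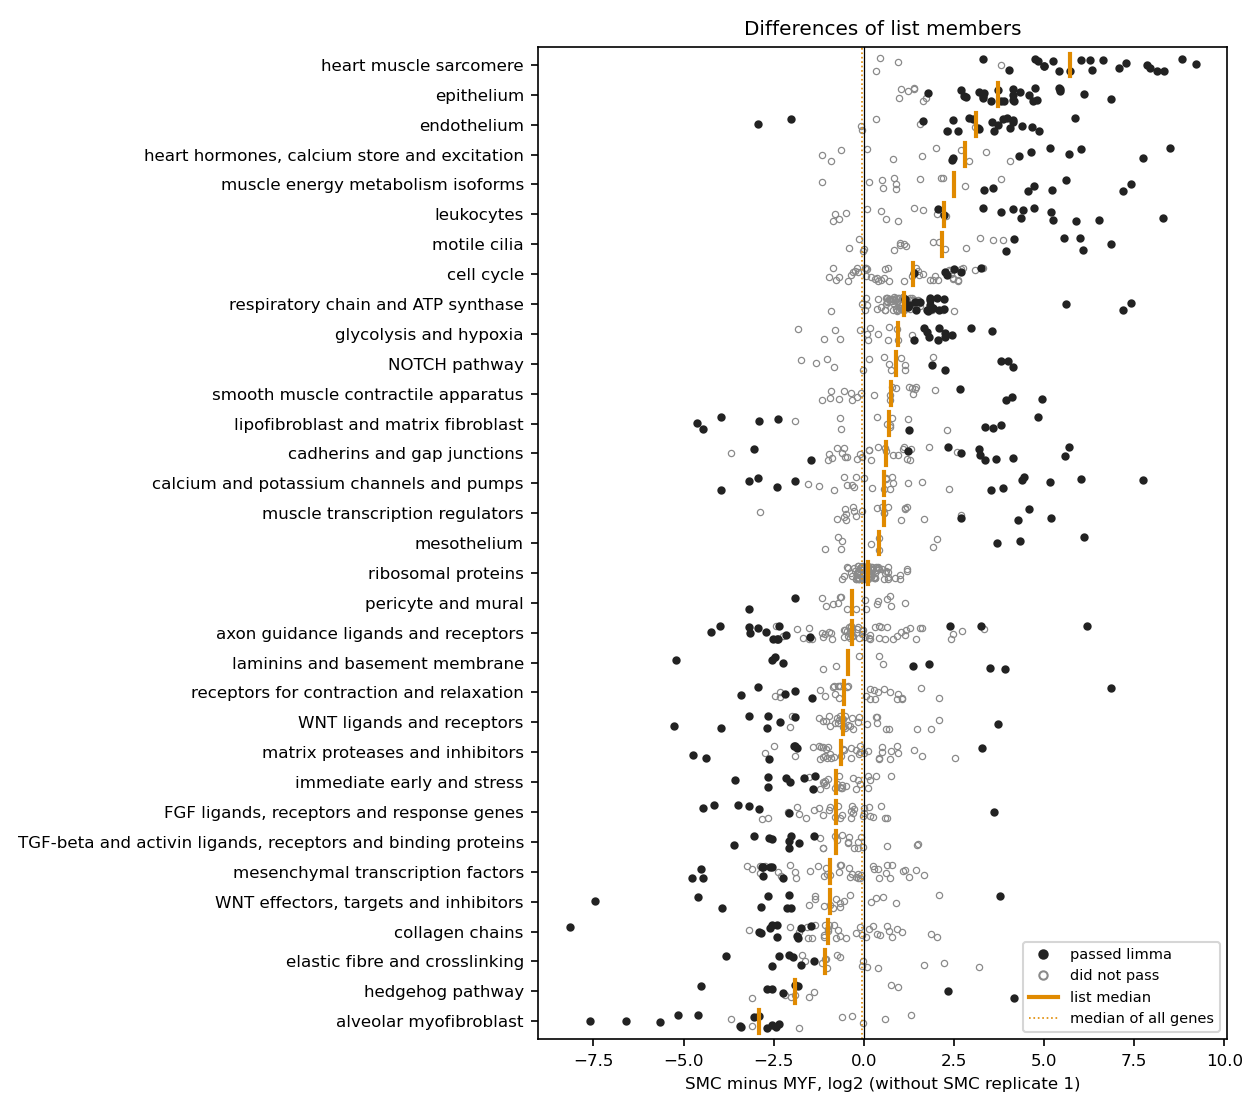
Difference between SMC and MYF (log2, without SMC replicate 1) of every measured member of 33 gene lists, 1 point per gene, filled where limma's test was passed; bars mark list medians and the dotted line the median of all genes (-0.05). Heart muscle sarcomere, epithelium and endothelium lie highest, with medians of 5.72, 3.72 and 3.12, and alveolar myofibroblast and hedgehog genes lowest, with -2.90 and -1.91.

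Most markers of epithelium and endothelium rose in SMC, as did 13 of 25 leukocyte markers. Of 33 epithelial markers 26 were higher and none lower (78.8%, 14 steady, 8 on all 9 arrays), with a median of 3.72 (3.35 on all 9 arrays) and a count of 15 without MYF replicate 3. Krt19, a keratin of airway epithelium, rose by 6.12 ± 0.86 (adjusted p = 0.00681) and Foxj1, the regulator of motile cilia, by 6.86 ± 1.10 (adjusted p = 0.0105). Of 22 genes of motile cilia 6 were higher and none lower (3 steady, 2 on all 9 arrays), with a median of 2.17 (2.61 on all 9 arrays) and counts of 17, 3 and 3 without SMC replicate 2, MYF replicate 1 and MYF replicate 3. Of 28 endothelial markers 20 were higher and 2 lower (15 and 1 steady, 3 higher on all 9 arrays), with a median of 3.12 (1.85 on all 9 arrays). The lower count was 1 in 7 of the 8 fits leaving out 1 further array. Vwf, the clotting factor carrier of endothelium, read 11.02 and 11.76 in SMC replicates 2 and 3, 9.38 in SMC replicate 1 and 5.68, 5.73 and 5.15 in MYF, with all SMC arrays above MYF, by 5.20 ± 0.67 (adjusted p = 0.0251) on all 9 arrays, and Tie1 rose by 4.87 ± 0.48 (adjusted p = 0.0021). Of 25 leukocyte markers 13 were higher and none lower (6 steady, 2 on all 9 arrays). Their median was 2.24 (1.92 on all 9 arrays), and their count was 6 to 10 without any 1 of the MYF or INM arrays. The macrophage genes C1qc, Cx3cr1 (6.53 ± 0.95, adjusted p = 0.00739) and Cd163 (5.90 ± 0.77, adjusted p = 0.0052) led them, whereas Ptprc, which marks leukocytes as a whole, read 6.75 and 7.20 in SMC replicates 2 and 3, 10.19 in SMC replicate 1 and 7.87, 8.04 and 7.43 in MYF. Csf1r, the receptor that macrophages depend on, read 12.13 and 12.08 in SMC replicates 2 and 3, 12.04 in SMC replicate 1 and 13.12, 12.76 and 12.97 in MYF. Neither was higher in SMC replicates 2 and 3 than in MYF. Of 12 mesothelial markers 3 were higher, all steady, and none passed on all 9 arrays.

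The SMC arrays did not share one mixture of these markers. The median log2 signal of the epithelial list was 8.69, 8.60 and 9.90 in SMC replicates 1 to 3, 5.31 to 5.69 in MYF and 10.5 to 11.3 in INM. That of motile cilia was 7.82, 6.55 and 9.997 in SMC replicates 1 to 3, 5.00 to 5.39 in MYF and 9.0 to 9.4 in INM. Endothelial markers stood at 8.52 in both SMC replicates 2 and 3 but at 5.46 in SMC replicate 1, within the MYF range of 5.32 to 5.79. In INM they stood at 8.86 to 9.18, above every SMC array. Leukocyte markers stood at 6.25, 7.13 and 9.63 in SMC replicates 1 to 3, at 4.46 to 5.19 in MYF and at 7.3 to 8.0 in INM. For all 4 lists INM thus lay above MYF too. SMC replicate 2 thus had the highest heart muscle signal and SMC replicate 3 the highest epithelial, ciliary and leukocyte signal of the SMC arrays. As a share of the summed signal of all genes, epithelial markers held 0.732%, 0.378% and 0.961% in SMC replicates 1 to 3, 0.0359% to 0.0543% in MYF and 1.15% to 1.30% in INM. Leukocyte markers held 0.268%, 0.255% and 0.328% in SMC replicates 1 to 3 and 0.2001% to 0.2202% in MYF. Endothelial markers held 0.0119% and 0.0611% in SMC replicates 1 and 2, below the 0.0749% to 0.0976% of MYF. SMC replicate 3, at 0.0758%, lay within the MYF range. Ednrb, given above as lower in SMC, is a member of the endothelial list. Among defining markers, Epcam of epithelium read 8.22 and 10.43 in SMC replicates 2 and 3, 3.63 in SMC replicate 1 and 5.87, 4.80 and 4.92 in MYF, and Pecam1 of endothelium 8.98 and 8.32 in SMC replicates 2 and 3, 7.50 in SMC replicate 1 and 5.56, 5.03 and 4.17 in MYF, with Epcam of SMC replicate 1 under every MYF array. The part of RNA from these cell types in any difference given above was not tested.

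**Figure D4:**
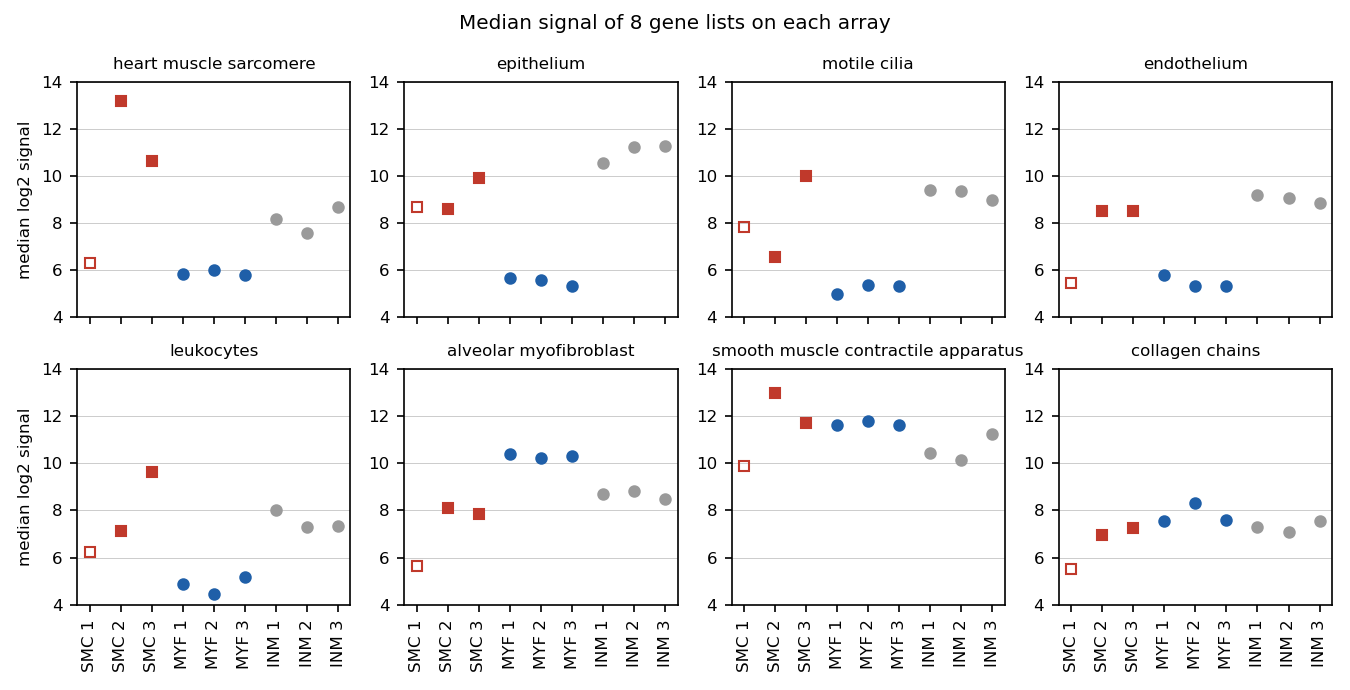
Median log2 signal of 8 gene lists on each of the 9 arrays (red squares SMC, open for replicate 1; blue circles MYF; grey circles INM). The heart muscle median falls from 13.17 in SMC replicate 2 to 10.61 in replicate 3 and 6.32 in replicate 1, whereas the alveolar myofibroblast median is lower in all 3 SMC arrays (5.66 to 8.10) than in MYF (10.2 to 10.4).

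Genes of energy metabolism, the cell cycle and stress followed, and each of their counts depended on single arrays. Of 84 genes of the respiratory chain and ATP synthase 20 were higher and none lower (4 steady, 1 on all 9 arrays), with a median of 1.11 without SMC replicate 1 and -0.27 on all 9 arrays. Their median log2 signal was 12.1 and 11.1 in SMC replicates 2 and 3, 6.77 in SMC replicate 1 and 10.2 to 10.6 in MYF. The count ran from 5 without MYF replicate 3 to 40 without SMC replicate 3, and was 7, 8, 11, 9, 11 and 10 without MYF replicates 1 and 2, SMC replicate 2 and INM replicates 1, 2 and 3. Glycolysis and hypoxia genes had 11 of 25 higher and none lower, 1 of them steady. That one was Aldoc, aldolase C, at 3.55 ± 0.46 (adjusted p = 0.00515) and on all 9 arrays 3.53 ± 0.51 (adjusted p = 0.0309). Their median was 0.94 and on all 9 arrays -0.04, and the count was 2, 3, 7 and 7 without MYF replicates 1 and 3 and INM replicates 1 and 3. Of 50 cell cycle genes 6 were higher and none lower (1 steady, none on all 9 arrays), with a median of 1.36 (0.49 on all 9 arrays), and the count was 22 without MYF replicate 2 and 1 to 3 without MYF replicates 1 or 3 or any INM array. Immediate early and stress genes, which can rise when tissue is taken apart, had 8 of 32 lower in SMC and none higher (3 steady, none on all 9 arrays), with a median of -0.77 (-1.90 on all 9 arrays). The count was 5 without SMC replicate 3, INM replicate 1 or INM replicate 2, and 4 without MYF replicate 1, MYF replicate 3 or INM replicate 3. Egr3 (-3.58 ± 0.59, adjusted p = 0.0115), Socs3 (-2.65 ± 0.39, adjusted p = 0.00779) and Nr4a1 (-2.15 ± 0.30, adjusted p = 0.0063) were the steady ones. Of 78 ribosomal protein genes none passed without SMC replicate 1 or on all 9 arrays by limma, with medians of 0.11 and -0.39.

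Where a gene had several probes, they mostly gave the same direction. Of 1044 genes that passed without SMC replicate 1 and had more than 1 probe, all other probes differed in the same direction in 774 (74.1%) and at least 1 other probe passed in 338. Of the 1930 other probes 9 passed in the opposite direction. Where all SMC arrays are said to lie on one side of MYF, this holds for the probe used. On another probe SMC replicate 1 lay above every MYF array for Penk (9.51 against 8.64 to 9.18) and Esr1 (7.47 against 6.56 to 7.13). INM lay between the 2 groups in 691 of the 859 genes lower in SMC, but in only 580 of the 1131 genes higher in SMC. SMC replicate 3 was the lower SMC array in 505 of the 859 lower genes and the higher one in 684 of the 1131 higher genes.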

How the data were processed

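The files hold 1 log2 expression value for each array feature and sample. Per the labels' protocols the sorted cells' RNA was amplified and labelled with a single dye (Cy3) for Agilent arrays, and the submitters' processing notes name limma with no version. The log2 values as deposited by the authors span 1.65 to 16.0 with like distributions on all arrays. How background was corrected, which normalization was used and why 1197 cells are empty is not given in the sources used here, and no scanner signals or detection calls were used, so a dim value may be background. Quantile or median centring of the deposited log2 values changed no count of genes.

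Of 62976 features 43941 had 1 gene symbol and 19035 none in the platform annotation. Symbols were updated through RefSeq (1851 changed), leaving 24291 genes, each represented by its brightest probe on average over all 9 arrays. limma 3.58.1 in R 4.3.3 (lmFit and eBayes, SMC minus MYF) was fitted with the INM arrays sharing the estimate of spread, and p-values were adjusted over all genes by Benjamini-Hochberg at 0.05. The fit was checked on simulated data. Promoters of RefSeq GRCm38.p6 were matched by symbol. With 2 or 3 arrays a group the number of arrays limits the precision, and the p-values measure only the spread between these samples. Probes differ in brightness, so levels of different genes are not compared, and values near 16.0 are at the ceiling.

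The text names the genes of the sort, the 15 largest steady differences each way, the 10 largest each way on all 9 arrays, and up to 4 members of each list each way that passed, with other members of a family given as not passing. Further steady members with values outside that rule (such as Ttn, Tnnc1, Ptch1 and Fbn1) were chosen after their values were seen. The comparison, the 52 lists and these rules were chosen with earlier results of these data known, and the lists have no test of their own. Their counts are to be read against the shares of all genes called, 4.66% higher and 3.54% lower without SMC replicate 1.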

Additional observations from a re-analysis of the deposited data

How the results depend on the processing

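With 2 or 3 arrays a group, counts of genes depended on single arrays and settings. On all 9 arrays, where limma called 163 genes, leaving out 1 array gave 0 to 1990, the highest without SMC replicate 1. Among other settings limma called 0 genes with the SMC and MYF arrays alone, 8 with a minimum log2 difference of 1, 355 with the probe of largest interquartile range, 289 features when every feature was tested, and 1409 with array weights, which gave SMC replicate 1 a weight of 0.0371 against 0.536 to 2.59 for the others. Without SMC replicate 1, where 1990 genes passed, leaving out 1 further array gave 817 to 4041. The count was 773 with array weights, 626 with SMC and MYF alone and 446 with the minimum difference. Leaving out genes below the median level gave 2540, of which 1163 were higher and 1377 lower, so the share of higher calls depended on that filter. The causes were not tested.

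Samples with the same number did not deviate together (correlations of 0.0995, -0.0165 and 0.063). The SMC deviations were taken from a mean that included SMC replicate 1, which stood apart. These values therefore cannot show whether the numbers pair the samples. A replicate block gave 769 genes without SMC replicate 1 and 1 on all 9 arrays.

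SMC replicate 1 lay on the called side in 59% of all genes called higher and 77.9% of those called lower without it. These shares were 65.4% and 88.1% with SMC and MYF alone, and 63.7% and 81.7% with the mean of all probes. None of them was set against genes matched for the level in MYF.

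Of the 219 genes of the naming rule, 51 kept the direction and the outcome of the test on all 9 arrays. These 51 passed in both fits or, like Acta2, in neither. A further 162 kept the direction but passed only without SMC replicate 1. The other 6 reversed: Fdps (-0.24), Hspg2 (-0.72), Myod1 (0.28), Ndufa12 (-0.16), Rps2 (-0.72) and Rps27l (-1.01). Of the 52 list medians, those that changed sign on all 9 arrays were of lipofibroblast (-0.35), respiratory chain (-0.27), glycolysis (-0.044), ribosomal protein (-0.39), sterol synthesis (-0.27), integrin (-0.059), HOX (0.035), neuropeptide (0.066), glutamate receptor (0.45) and BMP genes (0.14), while the median of all genes went from -0.05 to 0.10. Without dim genes that of muscle transcription regulators was -0.13 and that of laminins 0.15, which it also was with the probe of largest interquartile range (0.15). The median of receptors for contraction and relaxation was -0.56 without SMC replicate 1. It was -0.70 when SMC replicate 2 was also left out and 0.022 when SMC replicate 3 was. The median of channels and pumps was 0.56 without SMC replicate 1 and -0.18 when SMC replicate 2 was also left out.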
